A study of Homo sapiens with 6 samples.

Results

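The mRNA of 10 chemokines was followed in MDA-MB-231 cells with and without the DNA methyltransferase inhibitor guadecitabine (SGI-110). The genes were 5 CC chemokines (CCL20, CCL2, CCL5, CCL26 and CCL28), the interferon-type CXC chemokines CXCL10 and CXCL11, the membrane-anchored chemokines CXCL16 and CX3CL1, and CXCL14. They were chosen by gene symbol, and all 10 were found among the 17100 transcripts of the deposited count table. MDA-MB-231 is an established human triple-negative breast cancer cell line, and guadecitabine releases decitabine, which is built into DNA and traps the enzymes that methylate it. There were 3 libraries of vehicle-treated cells and 3 of cells exposed to 1 µM guadecitabine over 96 h and harvested after 24 h without drug. Both groups were the same line cultured without immune cells, and only RNA was measured. According to the methods of the study, the RNA came from independent experiments. What the vehicle given to these cells held is not given in the sources used here.

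Chemokines are small secreted proteins that direct the migration of leukocytes through receptors coupled to G proteins, and they are named by the spacing of their first cysteines (CC, CXC or CX3C). Epithelial and tumor cells produce many of them when NF-kB, a transcription factor activated by TNF, interleukin-1 and other danger signals, or the factors downstream of interferon are switched on. CXCL10, CXCL11 and CCL5 attract activated T cells and natural killer cells, CCL20 attracts cells of the Th17 type and immature dendritic cells, CCL2 attracts monocytes and CCL26 attracts eosinophils.

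The 3 vehicle libraries held 17602570 to 22277442 counts and the guadecitabine libraries 8792127 to 21410849, with replicate 2 the least deep. Vehicle replicate 3 stood apart from the other libraries. It had 20 transcripts at 0 counts against at least 1593 in each of the other 5 libraries, and over the 2782 transcripts with at most 1 count in both other vehicle libraries it held a median of 7.78 reads per kb of exon, with a 90th percentile of 16.6. This added level is set below beside CCL20, CXCL10 and CXCL14, and other weakly expressed genes may hold it in this library too. The epithelial and mesenchymal markers of the line were abundant, with a sum of VIM, CD44, EGFR, KRT18 and KRT8 between 105643 and 142976 normalised read counts. ESR1 and PGR had at most 1 count outside vehicle replicate 3, while ERBB2 had 552 to 1974 counts over the 6 libraries. The summed level of 10 immune cell markers was 3352 to 3892 in vehicle and 7604 to 7944 after guadecitabine, of which CD68, a lysosomal protein also made outside the immune system, was the largest part with means of 3092 and 7489.5. CD14 (91 to 257 counts), CSF1R (50 to 335) and LYZ (13 to 28) were also present in every library, and CSF1R fell by 1.32 on the log2 scale. The other 6, with the leukocyte marker PTPRC and the B cell marker MS4A1 among them, had at most 12 counts outside vehicle replicate 3. Endothelial markers summed to 122 to 239 in vehicle and 249 to 320 after guadecitabine, with KDR the only 1 of 4 that rose. Fibroblast markers summed to 821 to 1161 and 2200 to 2940, of which COL1A1 rose (means of 191 and 2014), COL1A2 fell (729.6 and 482), LUM and PDGFRA did not pass and DCN was not tested. The part of these markers in the chemokine values was not tested.

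Of the 10 chemokines, 6 were more abundant after guadecitabine, in the order CCL20, CCL5, CXCL10, CXCL11, CCL26 and CXCL16 by size of the change. CCL2, CX3CL1 and CCL28 had log2 fold changes of 0.05 to 0.43 that did not pass the test, and CXCL14 had few counts in both groups. In edgeR's quasi-likelihood test across 13322 genes, 9 of the 10 passed the filter on low counts, of which 6 rose and 3 did not pass at an adjusted p of 0.05. For comparison, 37.7% of all genes tested passed, with 19.3% higher and 18.4% lower after guadecitabine. The libraries of both groups did not overlap for 8 of the 10 chemokines, as was the case for 51.6% of all genes tested. The list was drawn up with the results of this comparison known, and CCL20 and CXCL10 passed the filter only through their guadecitabine libraries, so that these counts describe the 10 genes and do not test them. The median log2 fold change of the 9 genes was 2.80, against 0.02 over all genes tested. In a bulk library, more producing cells and more RNA per cell cannot be told apart.

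**Figure D1:**
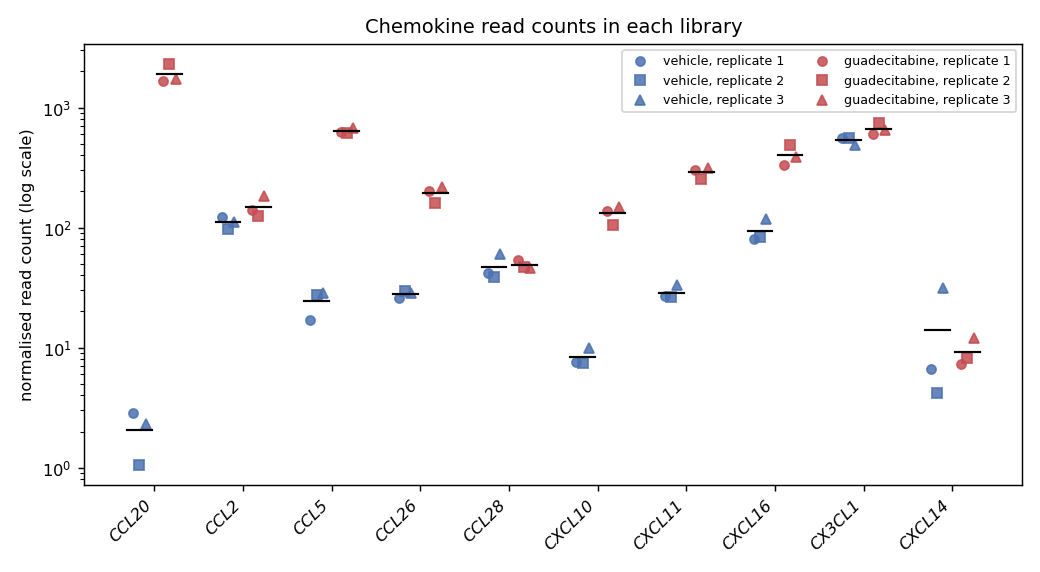
Normalised read counts of the 10 chemokines (vertical axis, log scale) in each of the 3 vehicle libraries (blue) and the 3 guadecitabine libraries (red), with the replicate given by the symbol and the group mean by a bar. CCL20 went from a mean of 2.07 to 1897, while CCL28 and CXCL14 were the genes whose groups overlapped.

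CCL20, the ligand of CCR6, went from the lowest to the highest mean of the 10. It had 3, 1 and 3 counts in vehicle replicates 1, 2 and 3 and 2071, 1132 and 1698 after guadecitabine. The low values in vehicle came from all 3 libraries, and vehicle replicate 3, with 3.58 reads per kb, lay under the median level it held on silent transcripts. Over the summed counts of each group, 4901 and 7, scaled for depth, the ratio was 850, with an interval of 412 to 2114 that covers counting error only (exact binomial, 95%). Normalised read counts were 2.07 ± 0.923 (SD, n = 3) in vehicle and 1897 ± 352 (SD, n = 3) after guadecitabine, a log2 fold change of 9.72 with a standard error of 0.271. CCL20 (NM_001130046) lies on hg19 at chr2:228678558-228682280 on the plus strand, and GENCODE gives the transcript with this span 4 exons. The stretch below was read from GRCh37, the assembly of hg19, at chr2:228678470-228678497, and holds in capitals a match to the NF-kB consensus on the opposite strand, 79 to 70 bp before the deposited transcript start.
CCL20 NF-kB match: gatcaatggGGAAAACCCCatgtggcaa

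CCL5 (RANTES), a ligand of CCR1 and CCR3, had 18, 26 and 37 counts in vehicle replicates 1 to 3 and 773, 303 and 672 after guadecitabine. Scaled for depth, the guadecitabine libraries lay close together at 626, 616 and 678 normalised read counts, although replicate 2 was the least deep library. The vehicle libraries held 17.1, 27.4 and 28.4, so that the means differed 26.3-fold (log2 fold change 4.70, standard error 0.183). Of the stretches of 50 bases in the longest GENCODE transcript of CCL5, 81.5% occurred in no transcript of another gene, the lowest share of the 10 chemokines. The gene (NM_002985) lies at chr17:34198496-34207377 on the minus strand. Both of its NF-kB matches lie within 54 bp before the start, at chr17:34207413-34207440 and chr17:34207398-34207425, and the lines give the strand of the gene with the match in capitals.
CCL5 NF-kB match, farther from the start: tgctattttGGAAACTCCCcttagggga
CCL5 NF-kB match, nearer to the start: tccccttagGGGATGCCCCtcaactggc

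CCL26 (eotaxin-3), a ligand of CCR3, had 27, 28 and 37 counts in vehicle and 250, 79 and 217 after guadecitabine. The lower count of guadecitabine replicate 2 went with its depth, and the 3 libraries held 202, 161 and 219 normalised read counts against 25.7 to 29.6 in vehicle. The means differed 6.95-fold, with a log2 fold change of 2.80 and a standard error of 0.213. CCL26 (NM_006072) lies at chr7:75398842-75419064 on the minus strand, and none of the motifs searched was found around its deposited start.

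CCL2 (MCP-1), the ligand of CCR2, was already expressed in vehicle cells, with 129, 92 and 145 counts. After guadecitabine it had 173, 61 and 180. On the normalised scale the guadecitabine libraries, at 140, 124 and 182, lay just above the vehicle libraries, at 123, 97.1 and 112. The log2 fold change of 0.43 had a 95% interval of -0.02 to 0.88 and did not pass the threshold, and the smallest gap between the groups was that between guadecitabine replicate 2 and vehicle replicate 1. CCL28, a mucosal chemokine that binds CCR10 and CCR3, had 44, 37 and 78 counts in vehicle and 66, 23 and 46 after guadecitabine. Its normalised values overlapped, at 39.1 to 60.0 and 46.4 to 53.4, and vehicle replicate 3 was the highest of the 6. The log2 fold change of 0.05 (95% interval -0.70 to 0.81) did not pass the threshold, it changed sign with vehicle replicate 1, vehicle replicate 2 or guadecitabine replicate 1 left out, and it was 0.28 without vehicle replicate 3. CCL2 lies at chr17:32582296-32584220 on the plus strand, 1614275 bp from CCL5, and CCL28 at chr5:43376748-43412493 on the minus strand.

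CXCL10 (IP-10) and CXCL11 (I-TAC), both ligands of CXCR3, rose together. CXCL10 had 8, 7 and 13 counts in vehicle and 171, 52 and 148 after guadecitabine. Its normalised read counts of 7.62, 7.39 and 9.99 stood against 138, 106 and 149, a log2 fold change of 3.95 with a standard error of 0.315. Vehicle replicate 3 held 10.7 reads per kb of CXCL10, between the median and the 90th percentile of its level on silent transcripts, and without this library the log2 fold change was 4.12. CXCL11 had 28, 25 and 43 counts in vehicle and 371, 124 and 308 after guadecitabine. All guadecitabine libraries, at 300.2, 252 and 311 normalised read counts, were far above the 26.4 to 33.1 of vehicle. The log2 fold change of CXCL11 was 3.31 with a standard error of 0.187, and the 95% intervals of CXCL11 (2.89 to 3.74) and CXCL10 (3.24 to 4.66) overlapped. The genes are neighbours on the minus strand of chromosome 4, CXCL10 (NM_001565) at chr4:76942269-76944689 and CXCL11 (NM_005409) at chr4:76954840-76957350, with 10150 bp between them. CXCL9, the third CXCR3 ligand, had 0, 0 and 36 counts in vehicle and 2, 0 and 1 after guadecitabine and was not tested.

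The CXCL10 promoter was the only one of the 10 with a match to the interferon-stimulated response element (ISRE), the site bound by IRF and STAT complexes after interferon, and it also held a pair of NF-kB matches. The stretches lie at chr4:76944853-76944880, chr4:76944809-76944836 and chr4:76944754-76944781 and are printed on the strand of the gene with the match in capitals. CXCL11 had a match to the gamma-activated sequence (GAS), an element of interferon-responsive promoters, at chr4:76957445-76957472.
CXCL10 ISRE match: catgttttgGAAAGTGAAAcctaattca
CXCL10 NF-kB match, farther from the start: aggagcagaGGGAAATTCCgtaacttgg
CXCL10 NF-kB match, nearer to the start: ctgcaacatGGGACTTCCCcaggaacag
CXCL11 GAS match: taaatggatTTCTAGGAAaagctacctt

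CXCL16 and CX3CL1 (fractalkine) are made as transmembrane proteins that hold cells by their receptors, CXCR6 and CX3CR1, and are shed as soluble chemokines. CXCL16 had 85, 79 and 152 counts in vehicle and 413, 239 and 384 after guadecitabine. The normalised read counts were 80.9, 83.4 and 117 against 334, 486 and 388, a log2 fold change of 2.08 with a standard error of 0.201. Guadecitabine replicate 2 was the highest and vehicle replicate 3 the highest of its group, and the log2 fold change was 2.28 without the latter. CXCL16 lies at chr17:4636824-4643223 on the minus strand, and of its exon bases 3.44% are shared with ZMYND15 and 2.72% with MED11 on the opposite strand, with counts of 0 to 44 and 390 to 504 for these genes in vehicle and of 1 to 7 and 189 to 432 after guadecitabine. The strand used in counting is not given in the sources used here. Its NF-kB match, in capitals, lies at chr17:4643408-4643435, 203 to 194 bp before the start.
CXCL16 NF-kB match: tgggagcgaGGGGGTTCCCtgggctcgg

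CX3CL1 was the most deeply counted of the 10 in vehicle, with 584, 528 and 630 counts, and had 745, 362 and 639 after guadecitabine. Normalised read counts of 556, 557 and 484 in vehicle and 603, 736 and 645 after guadecitabine did not overlap. The log2 fold change was 0.31 with a 95% interval of 0.04 to 0.57, and it did not pass the threshold of the adjusted p. It passed with library totals as the only scaling (log2 fold change 0.34) and without guadecitabine replicate 1 (0.37). CX3CL1 lies at chr16:57406373-57418960 on the plus strand.

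CXCL14, a chemokine of epithelia that attracts monocyte-lineage cells, had 7, 4 and 41 counts in vehicle and 9, 4 and 12 after guadecitabine. It did not pass the filter on low counts. Vehicle replicate 3 alone was high, with 20.8 reads per kb against a 90th percentile of 16.6 on silent transcripts, and the other 5 libraries held 4.22 to 12.1 normalised read counts. CXCL14 lies at chr5:134906371-134914969 on the minus strand and shares 5.47% of its exon bases with SLC25A48 on the opposite strand, which had at most 12 counts.

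**Figure D2:**
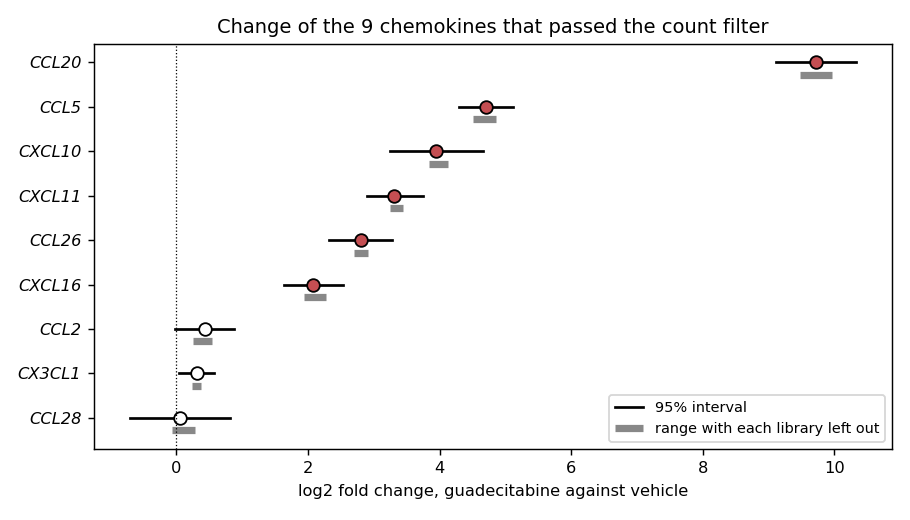
Log2 fold change (horizontal axis, guadecitabine against vehicle) of the 9 chemokines that passed the count filter, with 95% intervals from the edgeR fit (black lines) and the range of the estimate with each library left out in turn (grey bars). Filled points passed an adjusted p of 0.05, and the estimate of CCL20 stayed between 9.47 and 9.96 over the left-out libraries.

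Levels were compared between genes as normalised reads per kb of counted exon. In vehicle, CX3CL1 (161 ± 12.6, SD, n = 3) and CCL2 (148 ± 17.2) were the most abundant and overlapped each other. CCL26 (49.6 ± 3.53) followed without overlap, CXCL16 (41.6 ± 8.89) overlapped both with it and with CCL28 (34.6 ± 8.35), and CCL28 did not overlap with CCL5. CCL5 (19.8 ± 5.09) and CXCL11 (17.9 ± 2.36) overlapped as well, CXCL14 (7.16 ± 7.65) overlapped with CXCL10 (6.85 ± 1.19) through its high value in vehicle replicate 3, and CCL20 (2.47 ± 1.10) had the lowest mean. The libraries of CCL20 lay under each library of CXCL10 but overlapped with those of CXCL14, which held 3.38 and 2.14 in vehicle replicates 1 and 2. Among all 17100 transcripts, CCL20 was at percentile 13.3 of the vehicle means and CX3CL1 at 62.5.

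After guadecitabine the order was different. CCL20 led with 2262 ± 419 reads per kb (SD, n = 3), at percentile 95.5 of all transcripts, and did not overlap with CCL5 at 521 ± 27.1. CCL5 did not overlap with CCL26 at 345 ± 53.4, nor CCL26 with CX3CL1 at 199 ± 20.6. CX3CL1, CCL2 (199 ± 39.8), CXCL11 (180 ± 19.5) and CXCL16 (179 ± 34.2) formed a group in which neighbours in the order overlapped. CXCL10 (108 ± 18.6), CCL28 (36.0 ± 2.90) and CXCL14 (4.65 ± 1.31) were below it, each without overlap with the next.

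**Figure D3:**
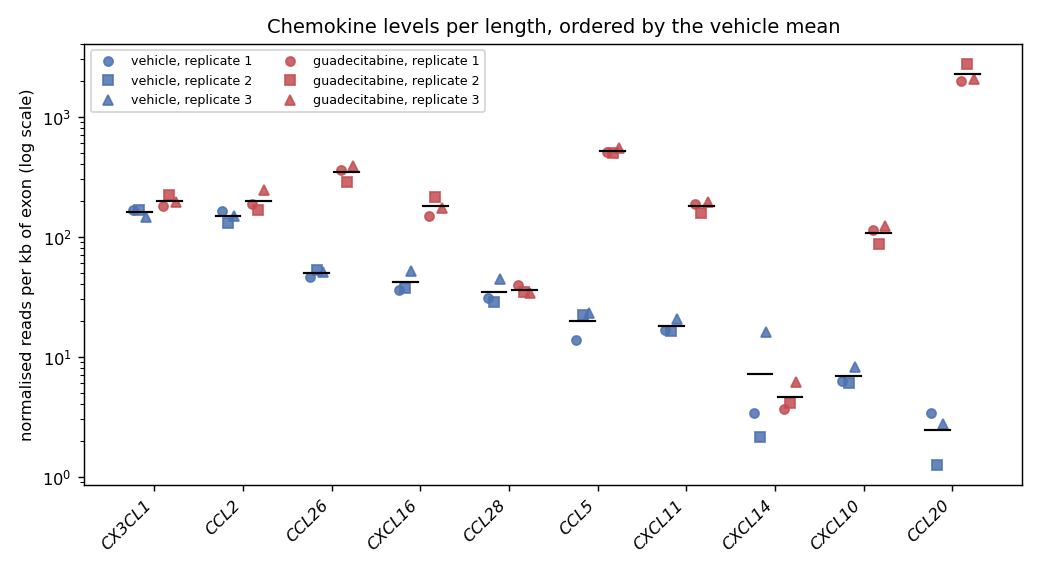
Normalised reads per kb of exon (vertical axis, log scale) of the 10 chemokines in the 3 vehicle (blue) and 3 guadecitabine libraries (red), with group means as bars and genes ordered by the vehicle mean. CCL20, at the right, went from 2.47 to 2262 reads per kb, and CX3CL1, at the left, from 161 to 199.

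Most of the receptors through which these chemokines act had few counts in the cells themselves. Of 23 chemokine receptors listed, 19 were in the table and 7 passed the count filter. Of these 7, 2 fell and 5 did not pass the threshold, with a median log2 fold change of -0.32. The share that passed was 28.6%, against 37.7% of all genes tested. CCR7 and CCR10 passed the count filter only through their guadecitabine libraries. ACKR3, an atypical receptor that takes up CXCL11, had 102, 104 and 202 counts in vehicle and 40, 14 and 24 after guadecitabine, and fell by 2.09 on the log2 scale (standard error 0.286, edgeR adjusted p = 0.000542). CCR1, a receptor of CCL5, had 31, 23 and 64 counts against 10, 3 and 11 and fell by 1.98 on the log2 scale, but it passed the count filter only through its vehicle libraries. For both, each guadecitabine library was below each vehicle library after scaling, and vehicle replicate 3 was the highest. Without guadecitabine replicate 2, or without guadecitabine replicate 3, 1 receptor was lower.

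Outside vehicle replicate 3, CCR6 had at most 1 count, CCR2 at most 3, CXCR3 at most 5 and CXCR6 at most 9. Vehicle replicate 3 held 18, 29, 8 and 35 counts of the same genes. CCR10, a receptor of CCL28, had 4, 6 and 48 counts in vehicle and 35, 31 and 54 after guadecitabine. Its log2 fold change of 1.57 had a 95% interval of -0.19 to 3.33 (edgeR adjusted p = 0.145), and the groups overlapped through vehicle replicate 3. CCRL2, an atypical receptor that binds chemerin, had a log2 fold change of -0.32 (edgeR adjusted p = 0.059). Without vehicle replicate 3, 2 receptors were higher, and with the replicate number as a block 1 was. CCR3 and CX3CR1 were listed but were not among the transcripts of the deposited count table.

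Among the proteases that process chemokines, ADAM10, which sheds CX3CL1 and CXCL16, fell by 0.66 on the log2 scale (edgeR adjusted p = 0.00488), from 3147 ± 294.5 to 1987 ± 319 normalised read counts (SD, n = 3). TIMP3, an inhibitor of such sheddases, fell by 0.47 (edgeR adjusted p = 0.00504). ADAM17, with 500 ± 6.79 and 637 ± 101 normalised read counts (SD, n = 3), did not pass the threshold (log2 fold change 0.36, edgeR adjusted p = 0.0533). DPP4, which trims the ends of CXCL10 and CXCL11, was higher with a log2 fold change of 1.10 (edgeR adjusted p = 0.0358), and its call was lost when vehicle replicate 1, vehicle replicate 2, guadecitabine replicate 1 or guadecitabine replicate 3 was left out, with 0 of the 4 genes higher. Without guadecitabine replicate 2, 2 of the 4 genes were higher. With all 6 libraries, 1 of the 4 rose, 2 fell and 1 did not pass. The share that passed was 75%, against 37.7% of all genes tested.

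NF-kB drives CCL20, CCL2, CCL5 and CXCL10 in many cell types. Of 25 genes of this pathway, all tested, 18 rose, 3 fell and 4 did not pass the threshold. Their median log2 fold change was 0.90. Over all genes tested, 19.3% were higher and 18.4% lower. The list was chosen with earlier results of these data known, and its part in the chemokine values was not tested. The genes with the smallest p were the cytokines IL1A, IL1B and TNF, which act on NF-kB from outside the cell, and NFKBIZ, an inducible nuclear partner of it. IL1B had 26, 21 and 58 counts in vehicle and 11892, 3615 and 8579 after guadecitabine, a log2 fold change of 8.08 (standard error 0.252, edgeR adjusted p = 8.6e-08). IL1A went from 14.1 ± 3.99 to 3863 ± 520 normalised read counts (SD, n = 3). TNF had 3, 1 and 18 counts in vehicle and 1098, 532 and 939 after guadecitabine, a log2 fold change of 7.17. Of the 18 genes that rose, TNF and IL1A passed the count filter only through their guadecitabine libraries. NFKBIZ rose by a log2 fold change of 1.86 (edgeR adjusted p = 3.09e-06). With each library left out in turn, 15 to 18 NF-kB genes were higher, and 1 was lower without vehicle replicate 1, vehicle replicate 2, guadecitabine replicate 1 or guadecitabine replicate 3.

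The interferon pathway, upstream of CXCL10 and CXCL11, was mixed. Of 24 genes listed 20 were tested, of which 7 rose, 3 fell and 10 did not pass, with a median log2 fold change of 0.27. Of those tested 50% passed, against 37.7% of all genes tested, with 19.3% of all genes higher and 18.4% lower. The part of this pathway in the chemokine values was not tested. IRF7, the factor that amplifies type I interferon, rose from 430 ± 40.8 to 808 ± 123 normalised read counts (SD, n = 3), by 0.90 on the log2 scale (edgeR adjusted p = 0.000895). JAK1, a kinase of the interferon receptors, rose by 0.66 on the log2 scale (edgeR adjusted p = 0.00153), and SOCS3, a feedback inhibitor of cytokine receptors, fell by 0.92 (edgeR adjusted p = 0.00181). IFNL1, a type III interferon, had 0, 1 and 7 counts in vehicle and 26, 19 and 27 after guadecitabine with a log2 fold change of 3.56, and of the 7 genes that rose it alone passed the count filter only through its guadecitabine libraries. Leaving out vehicle replicate 1 or vehicle replicate 2 left 4 genes higher and 1 lower, and leaving out guadecitabine replicate 3 left 2 higher and 1 lower. IFNB1 and IFNG were listed but were not among the transcripts of the deposited count table.

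CCL26 is known as a target of IL-4 and IL-13 through STAT6. Of 5 genes of this pathway that were tested, 2 rose and 3 did not pass, with a median log2 fold change of 0.19. The share that passed, 40%, was near the 37.7% of all genes tested. The part of this pathway in the change of CCL26 was not tested. IL2RG, the common gamma chain of several interleukin receptors, had 15, 10 and 26 counts in vehicle and 444, 208 and 412 after guadecitabine, a log2 fold change of 4.69 (edgeR adjusted p = 1.03e-06). IL4R rose by 0.67 on the log2 scale (edgeR adjusted p = 0.00218). STAT6 itself had a log2 fold change of -0.21 (edgeR adjusted p = 0.149) and IL13RA1 of 0.19 (edgeR adjusted p = 0.224).

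Of 36 other chemokine ligands listed, 20 were in the table and 8 were tested. Of the 8 tested, 7 rose, while 19.3% of all genes tested were higher. XCL1, with 0, 0 and 7 counts in vehicle and 17, 5 and 13 after guadecitabine, did not pass. Without vehicle replicate 3, 8 of the 8 other ligands tested were higher. With all 6 libraries, the median log2 fold change of the 8 was 5.68. However, XCL1, CCL3, CXCL5 and CXCL6 passed the filter only through the guadecitabine libraries. The most significant were CXCL1 (log2 fold change 6.62, edgeR adjusted p = 2.17e-08), CXCL3 (4.92, adjusted p = 3.32e-08), CXCL8 (5.54, adjusted p = 4.52e-08) and CXCL2 (4.37, adjusted p = 3.96e-07), all of which attract neutrophils.

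**Figure D4:**
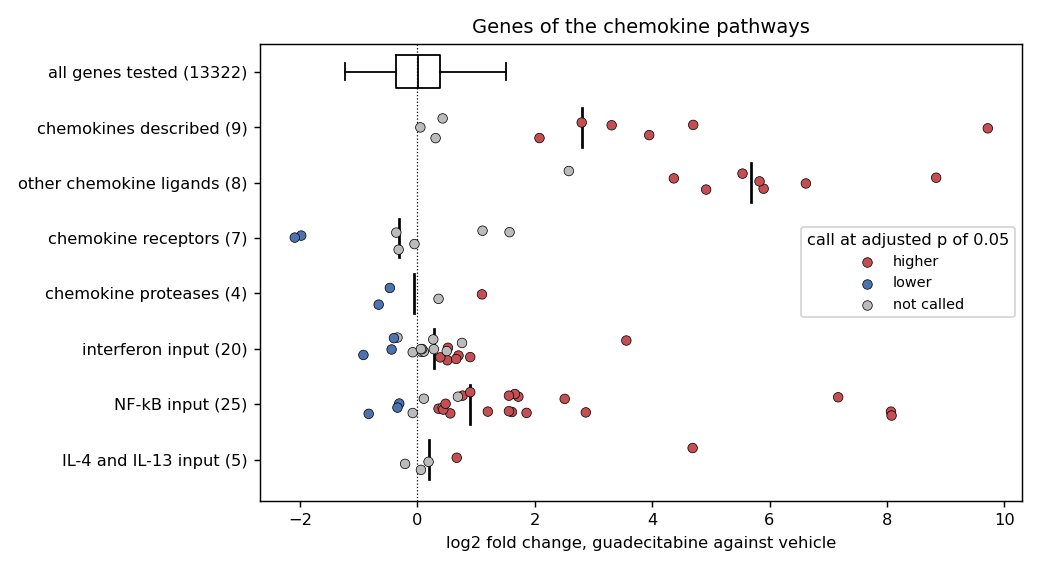
Log2 fold changes (horizontal axis, guadecitabine against vehicle) of the tested genes of each pathway list, with 1 point a gene coloured by its call and the list's median as a bar. The box over all 13322 genes marks the median and quartiles with whiskers at percentiles 5 and 95. The median of the other chemokine ligands was 5.68 and that of the receptors -0.32. These medians depend on the filter and are not compared. XCL1, CCL3, CXCL5, CXCL6, CCR7 and CCR10 passed the filter only through guadecitabine libraries, and CCR1 only through vehicle libraries.

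For the 6 chemokines that rose, the nearest tested gene on either side, other chemokines of the 10 and genes that overlap them left out, gave 10 genes at 12028 to 252619 bp. Their log2 fold changes ranged from -0.82 to 0.69 and 1 of the 10 passed the threshold, HIP1 beside CCL26, which fell by 0.57 (edgeR adjusted p = 0.00918). For comparison, 37.7% of all genes tested passed, and whether neighbours differ from other genes was not tested. On either side of the pair CXCL10 and CXCL11, SDAD1 had a log2 fold change of 0.24 (edgeR adjusted p = 0.217) and NUP54 of -0.05 (edgeR adjusted p = 0.77). CCL20 lay 54046 bp from DAW1, with a log2 fold change of 0.69 (edgeR adjusted p = 0.175), and 252619 bp from AGFG1. MED11, which overlaps CXCL16, had a log2 fold change of -0.05 and did not pass. Over all 10 chemokines 4 of 18 such neighbours passed, and beside chemokines that did not pass these were HMGCS1 near CCL28 (-1.20) and PLLP (-0.47) and CIAPIN1 (0.36) near CX3CL1.

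The genes with the most similar profile over the 6 libraries were sought among 10415 genes with a mean of at least 100 normalised read counts. Likeness was the root mean square difference of centred log2 values, with 1 added to each normalised read count. The added 1 weighs most at the low counts of CCL20 in vehicle. This description is dominated by the difference between both groups. For CCL20 the nearest were CSF3, the granulocyte growth factor, with a difference of 0.24, and SERPINB2, an inhibitor of urokinase, with 0.37. The nearest to CCL5 were HSD11B1 (0.17), an enzyme of cortisol metabolism, and the cytokine IL6 (0.22). CXCL16 was nearest to HIC1 (0.11), a transcriptional repressor, and AIM1L (0.14), and CX3CL1 to DAD1 (0.02) and PSEN2 (0.02).

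Motifs and CpG dinucleotides, the sites of DNA methylation, were counted from 250 bp before to 50 bp after each deposited transcript start. The motifs were the NF-kB consensus, the ISRE (GAAA, any 2 bases and GAAA again), the GAS (TTCNNNGAA) and the AP-1 site (TGANTCA) on both strands and the TATA box (TATAAA) on the strand of the gene, and matches of different motifs in the 10 promoters did not overlap. A GENCODE transcript of the gene began at the deposited start for 4 of the 10, CCL20, CCL28, CXCL16 and CXCL14. NF-kB matches were present in 4 of the 10, CCL20, CCL5, CXCL10 and CXCL16, and in 6.75% of all 17100 promoters. ISRE matches were present in 1 of the 10 and in 3.09% of all, and GAS matches in 2 of the 10 (CCL2 and CXCL11) and in 6.73% of all. A TATAAA match was present in CCL20, CCL5 and CX3CL1 and in 5.66% of all promoters, and an AP-1 match in CXCL11 and in 5.26% of all. The TATAAA match lay at -29 to -24 from the deposited start in CCL20 and at -18 to -13 in CCL5. In CX3CL1 it lay across the deposited start, from -1 to 5. Over all genes tested, 24.6% of those with an NF-kB match and 18.9% of those without were higher after guadecitabine. These matches describe the sequence, and binding was not measured.

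Most of the promoters were poor in CpG. CXCL11 had 2 CpG sites in the 300 bp, CCL20, CCL28 and CXCL10 had 3, CCL2 and CCL26 had 4, CCL5 had 6, CX3CL1 had 7 and CXCL14 had 13, while CXCL16 had 34. The median of the 13322 promoters of genes tested was 24, with quartiles of 15 and 33. At or under the lower quartile were 9 of the 10 chemokines and 26.2% of the genes tested. The CpG-poor promoters included genes that rose (CCL20, CCL5, CXCL10, CXCL11 and CCL26) and genes that did not pass the threshold (CCL2, CCL28 and CX3CL1), and methylation was not analysed here.

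**Figure D5:**
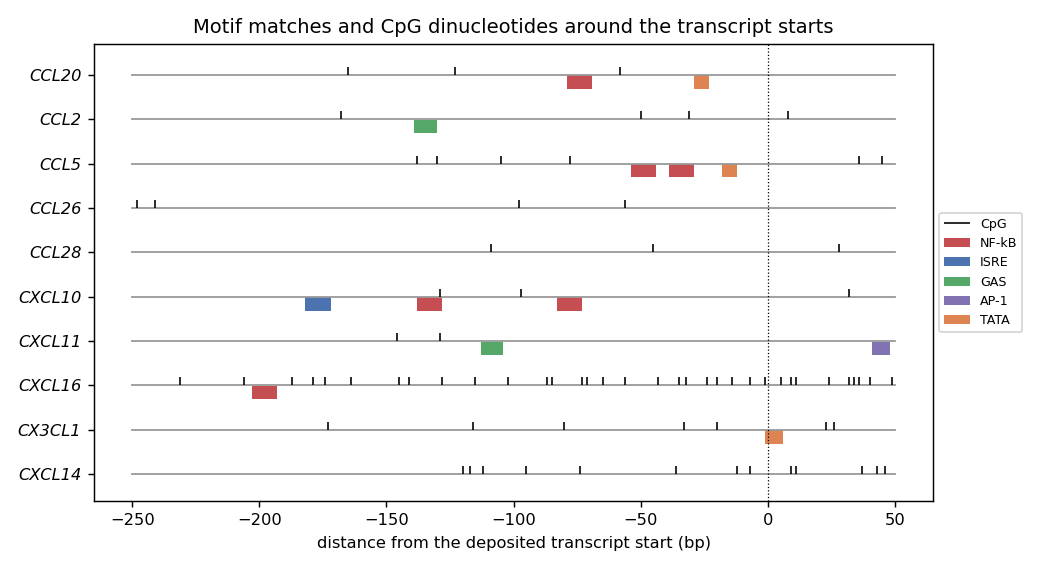
Positions of motif matches (coloured boxes) and CpG dinucleotides (black ticks) in the promoters of the 10 chemokines, by distance from the deposited transcript start (horizontal axis, bp). CXCL16 is dense in CpG with 34 sites, and NF-kB matches are seen in CCL20, CCL5, CXCL10 and CXCL16.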

How the data were processed

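RNA of MDA-MB-231 cells was sequenced by the authors from 3 vehicle and 3 guadecitabine libraries. The authors aligned reads to hg19 with STAR (2.3.1z in the submitters' processing notes) and used iRNA-seq to make the deposited raw counts, the number of reads in the exons of each RefSeq transcript. The deposited regularized log values and the columns of the authors' DESeq2 comparison (fold changes, standard errors and p-values) were not used. Each of the 17100 transcripts had its own symbol, and the smallest total over the libraries was 11. Samples were grouped by their titles, and 0 pairs of libraries were identical.

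The tests were run on these counts in edgeR 4.0.16 with R 4.3.3 (TMM, filterByExpr with a minimum count of 10, quasi-likelihood test, Benjamini-Hochberg adjustment over 13322 genes, threshold 0.05), without a covariate. The script was tested on simulated data. Standard errors come from the F statistic. Normalised read counts were scaled to the mean total of 17911210. Intervals on counts cover counting error only, since reads are not independent molecules. Promoters were read from GRCh37 at the deposited starts with pysam 0.24.0, and gene models came from GENCODE release 44. Starts are given 1-based.

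The 10 chemokines and the pathway lists were chosen with earlier results of these data known. Named were all 10, their receptors except for an item that is not reported here, the 4 most significant genes of each pathway list, the 2 genes most similar to each of the 4 chemokines with the highest mean normalised read count over the 6 libraries, and the nearest tested genes on either side, a rule added after the data were seen. IL-4 and IL-13 genes share SOCS1 with the interferon list. Alternatives were a replicate block, DESeq2 1.42.0, its size factors, library totals only, no filter, at least 10 counts in every library, and each library left out.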

Additional observations from a re-analysis of the deposited data

How the results depend on the processing

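Of the 9 chemokines tested, the 6 that rose passed the threshold under every alternative that tested them, CCL20 and CXCL10 not being tested with at least 10 counts in every library, while CCL2 and CCL28 passed under none. CX3CL1 passed with library totals only (log2 fold change 0.34) and without guadecitabine replicate 1, with a range of 0.23 to 0.37 over the libraries left out. CCL28 changed sign to -0.02 without vehicle replicate 1, -0.06 without vehicle replicate 2 and -0.02 without guadecitabine replicate 1, with a range of -0.06 to 0.28. CXCL14, tested with no filter, had a log2 fold change of -0.57 and did not pass, nor did it with a library left out, where it was tested in 4 of the 6 cases at -1.05 (without vehicle replicate 2) to -0.48, with -0.97 without vehicle replicate 1.

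With at least 10 counts in every library, 4 other chemokine ligands were higher, of only 4 left to test, 1 receptor was lower and 2 protease genes were higher. Under DESeq2 size factors 2 protease genes were higher. With no filter 1 receptor was lower and 1 NF-kB gene was lower. Over the libraries left out, the receptors higher ranged from 0 to 2 and lower from 1 to 2, protease genes higher from 0 to 2, interferon genes higher from 2 to 8 and lower from 1 to 3, NF-kB genes lower from 1 to 2, and all genes higher from 1706 to 3002 and lower from 1629 to 2575, the lowest without guadecitabine replicate 3. Except where a value above gives the number of genes or libraries left, the cause was not tested.

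Same-numbered libraries deviated from their group means with correlations of -0.038, 0.038 and -0.032 across genes, and 2 of 6 libraries correlated best with their own number. The background of vehicle replicate 3 enters the mean behind each vehicle deviation, so that these correlations cannot decide whether the libraries were paired. The numbers were not treated as pairs because the sources used here do not say whether same-numbered libraries came from the same experiment. With the replicate number as a block, 6 chemokines rose as before, 1 receptor was higher, 1 NF-kB gene was lower, and 2424 genes were higher and 2230 lower. The least deep library, with 8792127 counts, and the background of vehicle replicate 3 limit what can be said of CXCL14 and most receptors.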

Other observations

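Several chemokines and receptors had reads in vehicle replicate 3 and almost none elsewhere. CCL8 had 30 counts there and at most 2 in each other library, CXCL12 had 42 and at most 7, PPBP had 18 and at most 1, and CXCR2 had 21 and at most 1. CCL24 had 3, 2 and 21 counts in vehicle and 1, 0 and 1 after guadecitabine. These genes were chosen after their values were seen, did not pass the filter on low counts, and were not tested.

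Over all genes tested, the share higher after guadecitabine was read by class of promoter CpG. It was 22.5% of 1232 genes with 0 to 5 CpG sites, 19.9% of 2264 genes with 6 to 15, 18.8% of 5628 genes with 16 to 30 and 18.9% of 4198 genes with 31 or more. In the same order of classes, 19.2%, 20%, 16.4% and 19.8% of the genes were lower. The classes were set after the data were seen, and no test was run. Of the motifs, 25.4% of tested genes with an ISRE match and 19.2% without were higher. For TATAAA the shares were 26.1% with a match and 19.0% without. They were 23.5% with an AP-1 match and 19.1% without, and 18.3% with a GAS match and 19.4% without.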
